A study of Mus musculus with 24 samples.

Results

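Bulk RNA sequencing of Lewis Lung Cancer (LLC) tumours was used to ask what a combination of 3 immune agents changed relative to vehicle. LLC is an established line derived from a mouse lung tumour, and the tumours were grown in wild-type mice. The triple group received poly I:C, an antibody against PD-1 and blockade of C5aR1, and the vehicle group received vehicle alone. Anti-PD-1 was given at 100 ug into the peritoneal cavity on days 7, 10 and 14, and poly I:C at 50 ug into the tumour on days 11 and 15. PMX53, taken here as the C5aR1 blocker named in the group labels, was given under the skin at 1 mg/kg each day from day 6. The 8 triple tumours were set against the 8 vehicle tumours, 16 of the 24 tumours in the series. The remaining 8 tumours, of a dual group given the same poly I:C and anti-PD-1 without PMX53, entered the fit and the closing comparison. All tumours came from 1 cell line. Each has a number of its own in its title, but the labels do not say that these are separate mice, so the p-values measure the spread between these tumours.

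Poly I:C is a synthetic double-stranded RNA. It is sensed by the endosomal receptor TLR3 and the cytosolic receptors MDA5 and RIG-I, which drive type I interferon and, through it, a large set of antiviral genes. PD-1 is an inhibitory receptor on activated T cells, and interferon induces its ligand PD-L1 on tumour and myeloid cells. C5a, a fragment released when complement component C5 is cleaved, attracts and activates neutrophils, monocytes and macrophages through C5aR1, a receptor that PMX53 blocks without removing its transcript.

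Levels are given in CPM (counts scaled to the size of the library) as the lowest, median and highest of the 8 tumours of a group. CPM was read off the deposited log2 value and does not correct for gene length. Fold changes are triple minus vehicle on the log2 scale with their standard error from limma, n = 8 tumours per group throughout. A gene was called at a Benjamini-Hochberg adjusted p under 0.05 over all 18723 genes. Triple tumours held 15671388 to 19254090 reads and vehicle tumours 14438318 to 17225195 reads. The S numbers in the titles follow the groups block by block, and the labels do not say what they count. Any batch that follows these numbers cannot be told apart from treatment. In bulk RNA, more cells of a type and more RNA per cell cannot be told apart.

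The label of a lung adenocarcinoma line was set against epithelial markers. Of 16 such markers 10 were measured, and the lung factor Nkx2-1 and the surfactant genes were among the 6 not analysed here. Of the 10 measured, 3 rose and 1 fell, beside 23% and 22.8% of all genes. Together the 10 took a median of 0.006747% of the reads in triple tumours and 0.007716% in vehicle tumours, with a keratin gene the most read. The epithelial adhesion gene Epcam lay at or under 0.916 CPM in all triple tumours and at or under 0.31 CPM in all vehicle tumours, whereas the mesenchymal filament gene Vim was between 2389 and 3592 CPM in triple tumours and between 2075 and 2646 CPM in vehicle tumours. Skeletal muscle genes took 0.03285% to 0.3201% of the reads in triple tumours and 0.0196% to 0.06908% in vehicle tumours. Of the 26 muscle genes, 24 were called higher. In 5 triple tumours (T_352_S48, T_353_S45, T_354_S47, T_355_S43 and T_362_S42) the muscle share lay above that of every vehicle and dual tumour. The part of muscle tissue in the other differences was not tested, so genes that lost their call without these 5 tumours, or with each tumour's muscle score as a covariate in the fit, are given with that value. Under either choice 0 of the 10 epithelial markers were called. Counts over lists other than muscle are given again where either choice moved them by over 1.5 times and by more than a single gene. A list without a second count can still have moved by less. Calls over all genes dropped under both choices. With all tumours 4297 genes rose and 4263 fell. Without these 5 tumours 2853 rose and 2848 fell, and with the covariate 1768 rose and 1678 fell. Second counts are to be read beside these totals. Whether a list lost more calls than all genes did was not tested.

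A large share of the transcriptome differed between the groups. Of the 18723 genes, 4297 rose (23%) and 4263 fell (22.8%), and 2105 rose and 984 fell at least 2-fold. With all tumours the larger changes were mostly increases, as 747 genes rose and 182 fell at least 4-fold. Without the muscle-rich tumours 721 rose and 777 fell at least 2-fold, and with the muscle covariate 568 rose and 493 fell at least 2-fold. The median log2 fold change over all genes was -0.02. In 749 genes (4%) all 8 triple values lay above all 8 vehicle values, and in 1096 genes (5.85%) all lay below. Of 2406 long non-coding RNAs 240 rose and 582 fell, against 3963 and 3349 of 14585 protein-coding genes.

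The triple tumours varied more among themselves than the vehicle tumours did. The SD over tumours was larger in the triple group for 15239 genes (81.4%), with a median SD of 0.45 in triple and 0.25 in vehicle tumours on the log2 scale. A pair of tumours marked the ends of this range. Triple tumour T_331_S44 was the lowest triple tumour for 2249 of the 4297 genes called higher, and T_352_S48 was the highest for 2264 of them. With the 5 muscle-rich triple tumours left out, a choice made after the data were seen, 5701 genes were called. Of the 8560 genes called with all tumours, 4454 were still called, with the 3 remaining triple tumours and all vehicle tumours common to both fits.

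**Figure D1:**
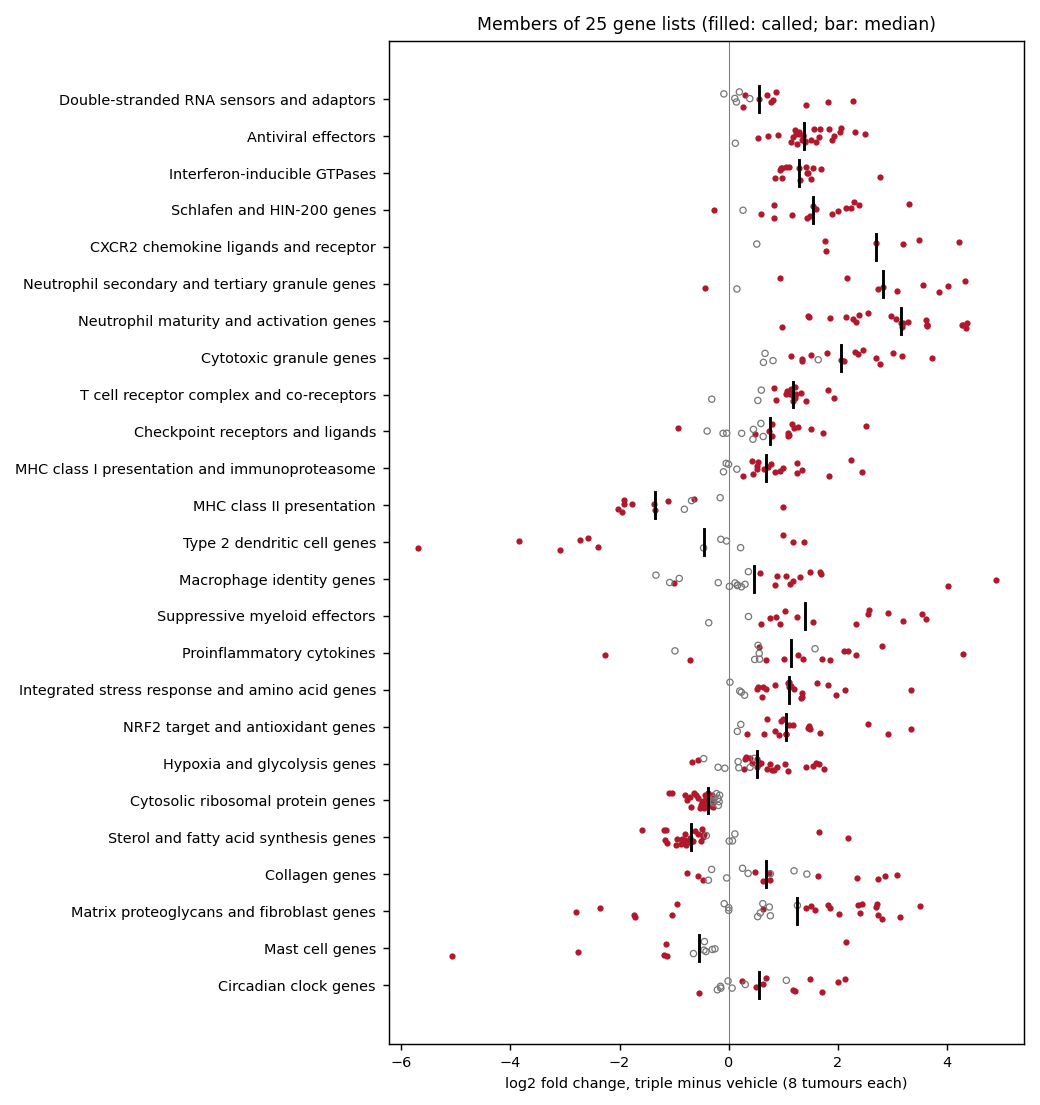
Log2 fold change (triple minus vehicle) of every measured member of 25 gene lists; each point is a gene, filled where called, and the bar is the list's median. Neutrophil maturity genes lie furthest right, with all 23 called higher, and MHC class II, ribosomal protein and sterol genes lie mostly left of 0.

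The genes with the smallest p-values included metalloproteases, a secreted protease inhibitor and a cystine importer. Mmp8, a collagenase stored in neutrophil granules (chromosome 9, 7558457 to 7568486, GRCm39), stood at 14, 34.3 and 87.8 CPM in triple tumours, against 0.826, 2.05 and 3.12 CPM in vehicle tumours. Its lowest triple tumour lay above the highest vehicle tumour. It rose by 4.34 ± 0.31 (SE; adjusted p = 1.83e-09). Slc7a11, the cystine importer that feeds glutathione synthesis, stood at 54.2, 76.3 and 140 CPM, against 3.73, 8.71 and 10.6 CPM in vehicle tumours, again without overlap, and rose by 3.34 ± 0.24 (SE; adjusted p = 1.83e-09). The metalloprotease Adam8 rose by 3.03 ± 0.25 (SE; adjusted p = 2.01e-08) and the secreted protease inhibitor Slpi by 4.28 ± 0.34 (SE; adjusted p = 7.67e-09).

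The largest decreases included genes expressed by dendritic cells, monocytes or macrophages. The lectin gene Mgl2 (chromosome 11, 70021155 to 70028376, GRCm39), expressed by type 2 dendritic cells and some macrophages, stood at 0.0785, 0.193 and 1.05 CPM in triple tumours, against 4.17, 13.4 and 25.7 CPM in vehicle tumours. All 8 triple tumours lay below all 8 vehicle tumours, and the log2 fold change was -5.70 ± 0.50 (SE; adjusted p = 3.3e-08). Fcrls, an Fc receptor-like gene of macrophages, stood at 0.421, 1.17 and 5.16 CPM in triple tumours, against 19.9, 36.3 and 78.1 CPM in vehicle tumours (log2 fold change -4.89 ± 0.46, SE; adjusted p = 6.04e-08). Cx3cr1, the fractalkine receptor of patrolling monocytes and macrophages, stood at 3.38, 5.42 and 9.47 CPM, against 39.9, 45.8 and 66.5 CPM in vehicle tumours. It fell by 3.20 log2 units (adjusted p = 4.04e-09), and its groups did not overlap either.

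Double-stranded RNA sensing and interferon response genes rose. Of 15 measured sensors and adaptors 10 rose and 0 fell, with a median log2 fold change of 0.56. Of 28 antiviral effectors 27 rose (median 1.39), and of 16 interferon receptor, STAT and regulator genes 10 rose (median 0.53). These 3 counts were 6, 17 and 5 without the muscle-rich tumours, where 1, 0 and 2 members fell. With the muscle covariate they were 3, 11 and 3, and 0 fell in each list. Every triple tumour lay above every vehicle tumour in 2 of the 15 sensor genes and in 6 of the 28 antiviral effectors. Over all genes this share was 4%. The mean log2 level of the effectors in T_331_S44 and T_362_S42, 0.19 and 0.28 above the vehicle mean, lay within the vehicle range, which reached 0.57. Oas3, which makes the second messenger that activates RNase L, stood at 70.4, 186 and 310 CPM in triple tumours, against 17, 38.8 and 50.5 CPM in vehicle tumours (log2 fold change 2.32 ± 0.30, SE; adjusted p = 2.35e-06). Irf7, the transcription factor that amplifies type I interferon, stood at 138, 436 and 1085 CPM, against 42, 85.9 and 129 CPM in vehicle tumours (2.29 ± 0.34, SE; adjusted p = 1.35e-05). Neither gene overlapped between the groups. Oasl1, Oasl2 and Rtp4 rose by 2.51, 1.69 and 1.66 log2 units, also without overlap.

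Cytosolic sensor and signalling genes rose as well. The sensor gene Ifih1, which encodes MDA5, stood at 12.6, 72.2 and 154 CPM in triple tumours, against 8.1, 18.5 and 20.9 CPM in vehicle tumours, and rose by 1.82 ± 0.39 (SE; adjusted p = 0.000554). Its triple tumour T_331_S44 lay within the vehicle range, and without the 5 muscle-rich tumours the log2 fold change was 0.95 (adjusted p = 0.0659). Ddx58, which encodes RIG-I, and Dhx58, which encodes the related LGP2, rose by 0.88 and 1.41. With the muscle covariate Ifih1, Ddx58 and Dhx58 stood at 0.76, 0.57 and 0.75 (adjusted p = 0.216, 0.0781 and 0.122). Stat2 and Irf9, which are part of the factor that type I interferon activates, rose by 1.02 and 0.74, and the antiviral effector gene Parp14 and the ubiquitin ligase gene Trim25 by 1.25 and 0.71.

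The promoters of these genes carry a known sequence mark. Interferon-stimulated response elements hold 2 copies of GAAA spaced by a pair of bases, searched here as GAAANNGAA on both strands from 250 bases before to 50 bases after the start site. The windows were RefSeq promoters of build GRCm38.p6, matched by symbol for 12419 genes. The motif was in 7.57% of all these promoters, in 9.74% of promoters of genes called higher, in 6.8% of those called lower and in 12.2% of those at least 2-fold higher. It was in 13 of 20 promoters of antiviral effectors (65%) and in 9 of 10 of interferon-inducible GTPases (90%). The sequences below are 120 bases of the promoters of the 4 named members of both lists with the smallest p whose window held the motif, with its letters in capitals, and overlapping copies run together.
Oas3, chr5:120777668-120777787, minus strand: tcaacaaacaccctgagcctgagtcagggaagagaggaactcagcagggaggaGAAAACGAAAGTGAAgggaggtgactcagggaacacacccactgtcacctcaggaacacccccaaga
Bst2, chr8:71537536-71537655, minus strand: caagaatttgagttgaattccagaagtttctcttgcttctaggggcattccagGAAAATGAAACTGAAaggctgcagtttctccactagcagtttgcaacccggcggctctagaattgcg
Irgm1, chr11:48871384-48871503, minus strand: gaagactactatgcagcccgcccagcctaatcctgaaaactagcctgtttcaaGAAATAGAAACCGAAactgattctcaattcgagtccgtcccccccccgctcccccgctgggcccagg
Gbp2, chr3:142620549-142620668, plus strand: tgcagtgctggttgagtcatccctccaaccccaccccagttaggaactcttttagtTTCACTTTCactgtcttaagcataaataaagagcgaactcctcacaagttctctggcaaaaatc
Oas3, Bst2 and Irgm1 hold 2 overlapping copies each, and Gbp2 holds 1 on the opposite strand. Bst2, which encodes the virus tether tetherin, stood at 154, 233 and 386 CPM in triple tumours, against 66.2, 110 and 164 CPM in vehicle tumours, and rose by 1.19 ± 0.20 (SE; adjusted p = 4.58e-05).

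Other motifs were scored in the same windows. The AP-1 site TGANTCA was in 5.77% of all promoters, in 10.6% of those at least 2-fold higher and in 7.38% of those at least 2-fold lower. TGANNNNGC, the antioxidant response element core, was in 42.9% of all promoters and in 8 of 16 (50%) of NRF2 target and antioxidant genes. TGATGNAA, the core bound by C/EBP and ATF factors at amino acid response genes, was in 2.41% of all promoters and in 5 of 19 (26.3%) of integrated stress response genes. These are counts of letters, not of binding.

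The interferon-inducible GTPases, which attack membranes around intracellular pathogens, rose in 16 of 16 members (median 1.30). Irgm1 stood at 269, 397 and 510 CPM in triple tumours, against 89.4, 187 and 212 CPM in vehicle tumours, and rose by 1.31 ± 0.22 (SE; adjusted p = 6.53e-05). Gbp2 rose by 1.56, Gbp3 by 1.44 and Gbp10 by 2.77. Schlafen and HIN-200 genes, which restrict viral translation or bind DNA, rose in 15 and fell in 1 of 17 members (median 1.54). Slfn4, a myeloid member, stood at 76.8, 499 and 1109 CPM, against 9.91, 39.3 and 72.9 CPM in vehicle tumours, and rose by 3.31 ± 0.50 (SE; adjusted p = 1.95e-05). Ifi204 and Ifi208 rose by 1.44 and 2.40. Aim2, whose protein binds cytosolic DNA to form an inflammasome, was the member that fell, by 0.27 log2 units (adjusted p = 0.0441). That call was lost when triple tumour T_352_S48, T_354_S47, T_362_S42 or T_363_S41 or vehicle tumour C_339_S25, C_351_S29, C_361_S32 or C_375_S31 was left out, with log2 fold changes between -0.28 and -0.21. Aim2 stood at -0.18 (adjusted p = 0.352) without the muscle-rich tumours and with the covariate at -0.08 (adjusted p = 0.731). With the covariate 4 of the GTPases and 8 Schlafen and HIN-200 genes rose. Genes of these families resemble one another and can share reads, so single members are less certain than the families.

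**Figure D2:**
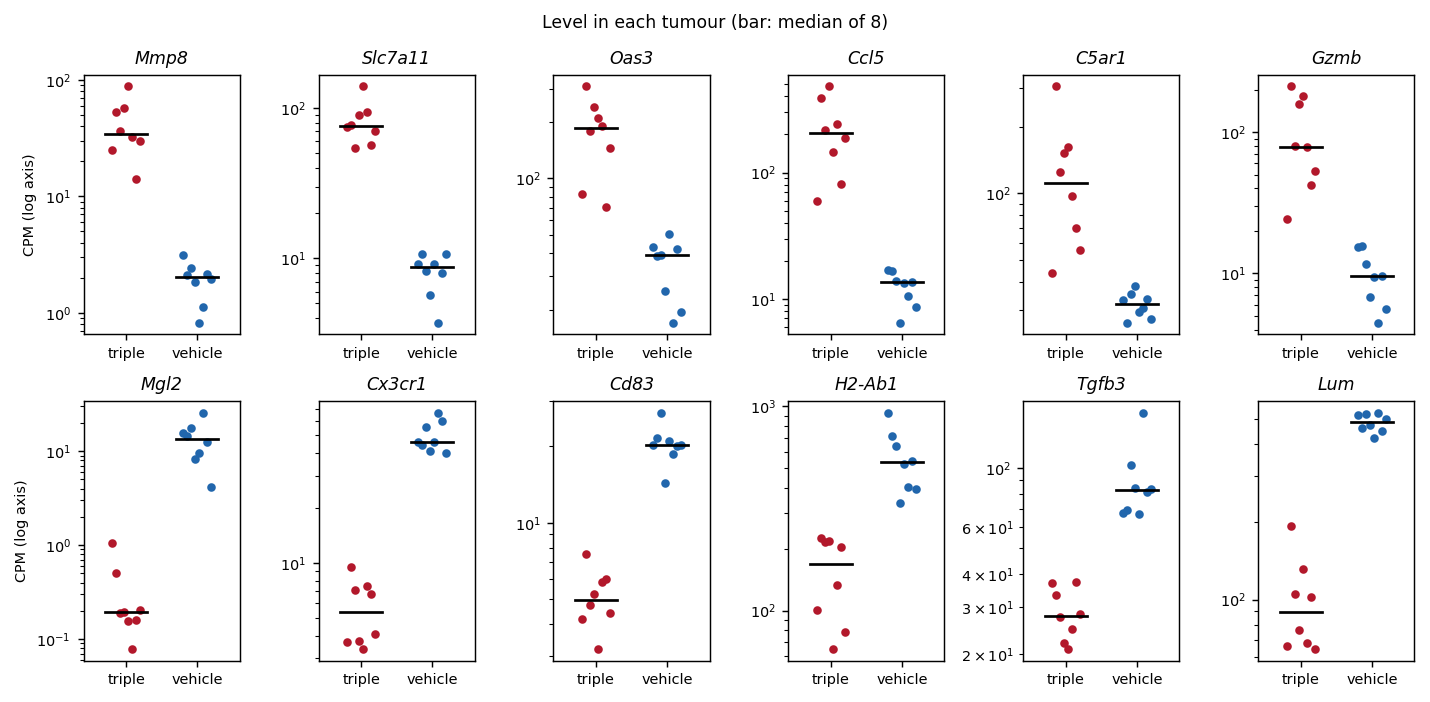
CPM (log axis) of 12 genes in each of the 8 triple tumours (left in each panel) and the 8 vehicle tumours (right); points are tumours and bars are medians. Mmp8, Slc7a11, Oas3, Ccl5, C5ar1 and Gzmb lie higher in every triple tumour than in any vehicle tumour, and Mgl2, Cx3cr1, Cd83, H2-Ab1, Tgfb3 and Lum lie lower.

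Chemokine genes for neutrophils rose, as did several for T cells and monocytes. Of the 7 genes of the CXCR2 axis, the receptor and ligands that draw neutrophils, 6 rose (median 2.7). Cxcl3 stood at 25.9, 51.9 and 416 CPM in triple tumours, against 0.376, 4.01 and 10.6 CPM in vehicle tumours, and rose by 4.23 ± 0.56 (SE; adjusted p = 3.6e-06). Cxcl2 rose by 3.50, Cxcl5 by 1.78 and Ppbp by 2.7. Cxcl1 had a log2 fold change of 0.52 ± 0.40 (SE; adjusted p = 0.294). Its vehicle tumours already ran from 5.52 to 85.2 CPM.

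Inflammatory CC chemokines rose as well. Ccl5, a T cell and monocyte attractant, stood at 59.7, 204 and 481 CPM in triple tumours, against 6.48, 13.5 and 16.9 CPM in vehicle tumours, and rose by 3.95 ± 0.38 (SE; adjusted p = 9.78e-08). Ccl3 and Ccl4 rose by 3.61 and 3.03, and none of the 3 overlapped between groups. The interferon-induced CXCR3 ligand Cxcl10 rose by 1.29 ± 0.35 (SE; adjusted p = 0.00399). Without the 5 muscle-rich tumours its log2 fold change was 0.92 (adjusted p = 0.113), and with the covariate 0.77 (adjusted p = 0.236).

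Chemokine and receptor genes of lymphoid and dendritic cell traffic went both ways. Of 18 genes 5 rose and 6 fell (median 0.13), beside 23% and 22.8% of all genes. In the absence of the muscle-rich tumours 1 rose and 6 fell (median -0.43), and with the muscle covariate 0 rose and 4 fell. Ccl22, made by dendritic cells and drawing CCR4-bearing T cells, stood at 0.838, 1.64 and 3.1 CPM in triple tumours, against 6.83, 9.29 and 12.9 CPM in vehicle tumours, with no overlap. It fell by 2.58 log2 units (adjusted p = 8.8e-06). Ccl17, the other CCR4 ligand, had 0 reads in 3 of 8 triple tumours and at most 0.236 CPM in the others, and 0.465 to 1.76 CPM in vehicle tumours (adjusted p = 1.2e-05). Ccr7, the receptor that leads mature dendritic cells to lymph nodes, fell by 1.24 log2 units (adjusted p = 0.00464). The stromal chemokine Cxcl12 rose by 3.24 ± 0.58 (SE; adjusted p = 0.000102), with triple tumours between 13.2 and 737 CPM and vehicle tumours between 6.38 and 26.1 CPM. With the covariate Cxcl12 stood at 1.71 (adjusted p = 0.0637).

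Neutrophil maturity genes had the highest median of the lists used here. All 23 measured maturity and activation genes rose (median 3.17). In 15 of them every triple tumour lay above every vehicle tumour, beside 4% of all genes. Of 11 secondary and tertiary granule genes 9 rose and 1 fell (median 2.83). Retnlg, a resistin-like gene of mature neutrophils, stood at 4.47, 12.7 and 63.2 CPM in triple tumours, against 0.197, 0.679 and 1.7 CPM in vehicle tumours, and rose by 4.38 ± 0.44 (SE; adjusted p = 1.62e-07). S100a8 and S100a9, the calprotectin subunits, rose by 3.63 and 3.65, and Cxcr2 by 3.20. Lcn2, a granule protein that binds bacterial siderophores, stood at 18, 30.7 and 302 CPM, against 0.78, 2.6 and 4.9 CPM in vehicle tumours (4.03 ± 0.43, SE; adjusted p = 3.27e-07).

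Receptors for bacterial and mitochondrial formyl peptides rose with them. Fpr1 stood at 9.3, 37.4 and 124 CPM in triple tumours, against 0.607, 1.64 and 2.39 CPM in vehicle tumours, a difference of 4.49 ± 0.40 (SE; adjusted p = 3.54e-08). Fpr2 rose by 3.70 ± 0.33 (SE; adjusted p = 3.54e-08). The pattern lectins Clec4d and Clec4e rose by 3.29 and 3.19. The highest triple tumour for many of these genes was T_355_S43 (Retnlg, Cxcr2, Cxcl2, Cxcl3) or T_352_S48 (Fpr1, Lcn2). Anxa1, which ligates formyl peptide receptors and limits neutrophil entry, was the granule list member that fell, by 0.43 log2 units (adjusted p = 0.00565). It stood at -0.23 without a call both without the 5 muscle-rich tumours (adjusted p = 0.198) and with the covariate (adjusted p = 0.324).

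Several complement receptor and component genes rose. Of 6 complement fragment receptor genes 3 rose and 1 fell (median 1.08). C5ar1, the blocked receptor, stood at 43.8, 111 and 304 CPM in triple tumours, against 26.2, 31.8 and 38.3 CPM in vehicle tumours. Every triple tumour lay above every vehicle tumour, and C5ar1 rose by 1.75 ± 0.26 (SE; adjusted p = 1.36e-05). The C3a receptor gene C3ar1 rose by 1.49 ± 0.26 (SE; adjusted p = 7.99e-05) and Itgam, the alpha chain of complement receptor CR3, by 1.49, and neither overlapped. Cd46, a membrane cofactor that binds C3b, was the receptor list member that fell, by 1.27 log2 units (adjusted p = 3.65e-05). C5ar2, the second C5a receptor, had a log2 fold change of 0.66 ± 0.28 (SE; adjusted p = 0.0517), and crossed the threshold without triple tumour T_331_S44, T_362_S42 or T_363_S41 or vehicle tumour C_356_S27, with log2 fold changes between 0.73 and 0.85. Hc, which encodes C5 itself, lay at or under 1.52 CPM in every tumour of both groups (0.54 ± 0.50, SE; adjusted p = 0.388).

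Of 17 measured complement components 8 rose and 1 fell (median 0.54), and 4 fell without triple tumour T_352_S48. Leaving out the muscle-rich tumours, 5 rose and 3 fell, and with the muscle covariate 4 rose and 1 fell. C3, the hub of all pathways, stood at 246, 687 and 2826 CPM in triple tumours, against 42.2, 98.9 and 171 CPM in vehicle tumours, and rose by 2.76 ± 0.39 (SE; adjusted p = 7.4e-06). Factor B (Cfb), which forms the alternative pathway convertase, and C2, its classical pathway counterpart, rose by 3.15 and 3.16, and the protease gene C1ra by 1.19. Serping1, the C1 inhibitor, rose by 3.45 ± 0.55 (SE; adjusted p = 2.89e-05), and by 2.15 (adjusted p = 0.00744) without the muscle-rich tumours. Masp1, which starts the lectin pathway, was the component that fell, by 0.76 log2 units (adjusted p = 0.00399). Without the 5 muscle-rich tumours Masp1 stood at -0.36 (adjusted p = 0.183), and with the covariate at -0.30 (adjusted p = 0.421).

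**Figure D3:**
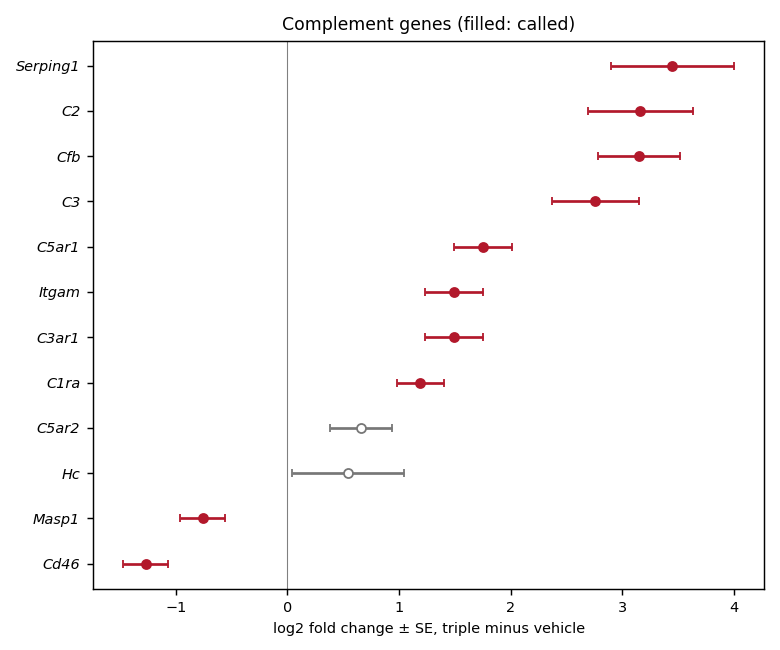
Log2 fold change (triple minus vehicle) with SE, n = 8 tumours per group, of the complement genes named in the text; filled points were called. Of the genes plotted, Serping1, C2, Cfb and C3 lie furthest right, at 3.45, 3.16, 3.15 and 2.76, and Cd46 lies furthest left, at -1.27.

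Cytotoxic lymphocyte and T cell receptor genes rose. Of 19 cytotoxic granule genes 15 rose (median 2.06), and of 19 T cell receptor and co-receptor genes 16 rose (median 1.19). Relative to the vehicle mean, the mean log2 level of the cytotoxic list in T_331_S44 was 0.38, within the vehicle range, which reached 1.41. That of the T cell receptor list was -0.48 in T_331_S44 and 0.47 in T_363_S41, within the vehicle range, which reached 0.51. Gzmb stood at 24.2, 78.7 and 211 CPM in triple tumours, against 4.48, 9.51 and 15.5 CPM in vehicle tumours, and the pore gene Prf1 at 13, 33.7 and 91.4 CPM in triple tumours, against 1.89, 5.19 and 10 CPM in vehicle tumours. Neither overlapped between groups. Without the 5 muscle-rich triple tumours 8 cytotoxic genes were called higher (median 1.45), but 1 T cell receptor complex gene was (median 0.31). With the muscle covariate these counts were 5 and 1. Cd8b1 rose by 1.94 ± 0.32 (SE; adjusted p = 3.79e-05) and kept its call without them, at 1.17 (adjusted p = 0.026). Cd4 had a log2 fold change of -0.31 ± 0.32 (SE; adjusted p = 0.454) with all tumours and -0.94 (adjusted p = 0.0434) without those 5, and -1.22 (adjusted p = 0.0162) with the covariate.

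Among 22 checkpoint receptors and ligands 13 rose and 1 fell (median 0.77), and 7 rose both without the muscle-rich tumours and with the muscle covariate. Cd274, which encodes PD-L1, stood at 92.7, 221 and 406 CPM in triple tumours, against 18.4, 39.5 and 51.6 CPM in vehicle tumours, and rose by 2.53 ± 0.26 (SE; adjusted p = 2.61e-07). Pdcd1, the antibody's target PD-1, had a log2 fold change of 0.59 ± 0.29 (SE; adjusted p = 0.0919). Without triple tumour T_331_S44 or vehicle tumour C_339_S25 it was called higher, at 0.70 and 0.75. Lag3 and Tigit, inhibitory receptors of activated T and natural killer cells, rose by 1.73 and 1.51, Havcr2 by 1.11 and the TIGIT ligand gene Nectin2 by 1.09. Of 10 regulatory T cell genes 1 rose and 1 fell (median -0.05), fewer than the 23% and 22.8% of all genes. Ikzf2, the Helios factor, fell by 0.57 log2 units (adjusted p = 0.00307). Without the muscle-rich tumours 1 of the 10 rose and 2 fell, and with the muscle covariate 0 rose and 1 fell. B and plasma cell genes differed in direction: Pax5 rose by 1.89 (adjusted p = 0.000311), while Ighm and Jchain fell by 1.44 and 2.35 in log2 units (adjusted p = 0.00139 and 0.00291).

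Antigen presentation split by class. Of 22 MHC class I and immunoproteasome genes 18 rose (median 0.69; 6 with the muscle covariate), and of 13 class II genes 9 fell and 1 rose (median -1.34). B2m, the class I light chain, stood at 2527, 3037 and 4706 CPM in triple tumours, against 1139, 1765 and 2296 CPM in vehicle tumours (1.0 ± 0.14, SE; adjusted p = 9.18e-06). The peptide transporter gene Tap1 rose by 1.35. H2-Ab1, a class II chain, stood at 64.9, 169 and 226 CPM, against 338, 532 and 930 CPM in vehicle tumours, with no overlap, and fell by 1.92 log2 units (adjusted p = 2.82e-06). H2-Aa and H2-Eb1 fell by 1.92 and 2.03, Cd74, the class II invariant chain, by 1.34, and Ciita, the class II transactivator, by 1.77 log2 units. Ctss, the cathepsin that trims the invariant chain, was the list member that rose, by 1.01 (adjusted p = 0.00168), but stood at 0.27 (adjusted p = 0.289) without the 5 muscle-rich tumours and at 0.33 (adjusted p = 0.403) with the covariate. Without the 5 muscle-rich tumours the class II median was -1.80, with the same number, 9, called lower.

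Dendritic cell genes other than class II changed in both directions. Of 13 type 2 dendritic cell genes 6 fell and 3 rose (median -0.46), and of 13 cross-presenting dendritic cell genes 4 fell and 3 rose (median -0.31). The second pair of counts is close to the 22.8% and 23% of all genes that fell and rose. Without the muscle-rich tumours 7 fell and 2 rose in the first list and 6 fell and 1 rose in the second, and with the muscle covariate 7 and 3 fell and 0 rose in either. Clec9a, which senses dead cells on cross-presenting dendritic cells, stood at 0.465, 0.768 and 1.49 CPM in triple tumours, against 1.58, 2.67 and 3.3 CPM in vehicle tumours (log2 fold change -1.66 ± 0.22, SE; adjusted p = 3.99e-06). Itgae, the CD103 integrin, fell by 2.04 log2 units. Of 9 plasmacytoid dendritic cell genes 3 rose and 1 fell (median 0.73), beside 23% and 22.8% of all genes. Their median was -0.05 without the muscle-rich tumours and -0.49 with the muscle covariate. The 1 that fell was Tcf4, the plasmacytoid lineage factor also found in other cells, by 0.86 log2 units. Cd83, an activation marker of dendritic and B cells, stood at 3.2, 5 and 7.52 CPM, against 14.3, 20.3 and 27.1 CPM in vehicle tumours, and fell by 2.01 log2 units (adjusted p = 7.13e-08). Il12b, the shared subunit of IL-12 and IL-23, fell by 2.27 log2 units (adjusted p = 0.00527).

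Macrophage and monocyte genes rose in part. Of 24 macrophage identity genes 12 rose and 1 fell (median 0.47), and without the 5 muscle-rich tumours 8 rose and 7 fell (median -0.15), and with the muscle covariate 7 rose and 1 fell. Without triple tumour T_352_S48 alone, 3 fell. Of 14 monocyte genes 9 rose and 2 fell (median 0.88), and 4 rose and 3 fell both without the muscle-rich tumours and with the covariate. Ly6c2, a marker of inflammatory monocytes, stood at 16.2, 188 and 458 CPM in triple tumours, against 4.23, 10.4 and 14.1 CPM in vehicle tumours, and rose by 3.91 ± 0.51 (SE; adjusted p = 3.47e-06). The scavenger receptor genes Marco and Cd68 rose by 4.03 and 1.67, and Cd5l, a secreted macrophage protein, by 4.90. Spp1, which encodes osteopontin, was the identity gene that fell, to 597, 877 and 1231 CPM in triple tumours, against 1320, 1599 and 2456 CPM in vehicle tumours (log2 fold change -1.0 ± 0.18, SE; adjusted p = 0.00011), and was not called with the covariate (-0.48, adjusted p = 0.0783). Fn1, fibronectin, which monocytes and fibroblasts both make, fell by 1.22 log2 units (adjusted p = 0.000779).

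Genes by which myeloid cells restrain T cells rose in 14 of 16 members (median 1.41). Nos2, the inducible nitric oxide synthase, stood at 61.9, 173 and 499 CPM in triple tumours, against 7.31, 25.9 and 33.8 CPM in vehicle tumours, and rose by 3.21 ± 0.36 (SE; adjusted p = 6.26e-07). The arginases Arg1 and Arg2 rose by 2.57 and 3.55, and Ptgs2, which starts prostaglandin synthesis, by 2.58 ± 0.31 (SE; adjusted p = 1.33e-06). Acod1, which makes itaconate in activated macrophages, rose by 3.72 ± 0.43 (SE; adjusted p = 8.14e-07). All 5 had every triple tumour above every vehicle tumour. The phospholipase gene Pla2g4a, which frees arachidonic acid for Ptgs2, rose by 0.95 ± 0.10 (SE; adjusted p = 2.54e-07), with triple tumours from 83.1 to 113 CPM and vehicle tumours from 47.5 to 58.4 CPM.

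Cytokine genes and NF-kappaB regulators rose in part. Of 20 proinflammatory cytokine genes 12 rose and 2 fell (median 1.15). The count that rose was 7 without the muscle-rich tumours and 6 with the muscle covariate. Il1a stood at 2.8, 4.09 and 48.5 CPM in triple tumours, against 0.0289, 0.472 and 0.767 CPM in vehicle tumours, of which 1 had 0 reads (4.30 ± 0.58, SE; adjusted p = 4.94e-06). Its antagonist Il1rn rose by 2.81, Tnf by 2.12, Osm by 2.19 and Csf1, the macrophage growth factor, by 0.69. Il1b rose by 1.87 ± 0.44 (SE; adjusted p = 0.00134), and by 0.82 without a call (adjusted p = 0.125) in the absence of the muscle-rich tumours, and by 0.98 without a call (adjusted p = 0.208) with the covariate. Of 21 NF-kappaB pathway genes 14 rose (median 0.50), among them Sod2 and Nfkbib, by 0.99 and 0.49. Of 18 inflammasome and lytic death genes 13 rose and 1, again Aim2, fell (median 0.73). Without the muscle-rich tumours 7 NF-kappaB genes and 4 inflammasome and lytic death genes rose, with the covariate 4 and 3, and 0 fell in each case. Mlkl, the executioner of necroptosis, stood at 101, 118 and 155 CPM, against 51.2, 65.1 and 72.7 CPM in vehicle tumours, and rose by 0.90 ± 0.11 (SE; adjusted p = 1.33e-06). Ninj1, which ruptures the membrane of dying cells, rose by 1.27.

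**Figure D4:**
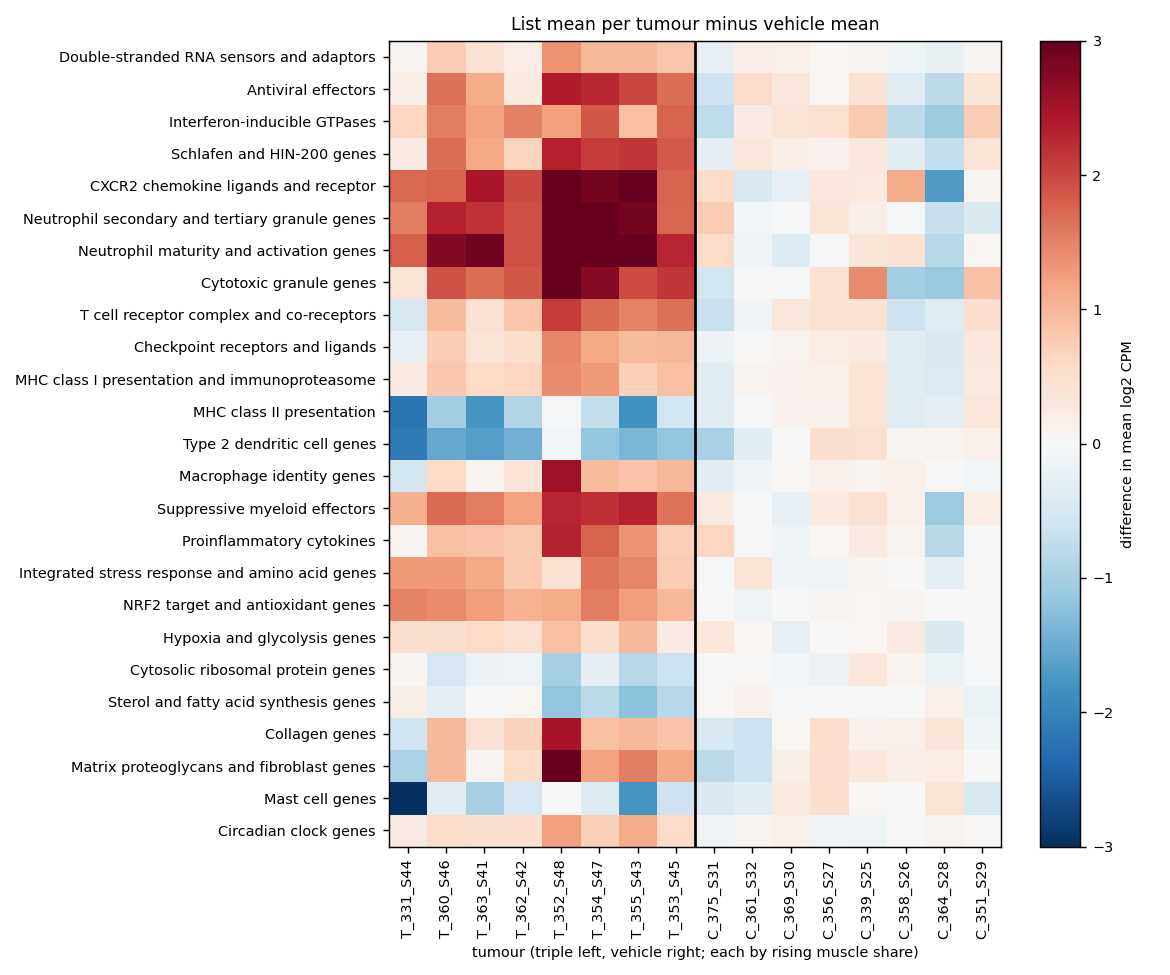
Mean log2 value of 25 gene lists in each tumour minus the mean of the vehicle tumours (columns: 8 triple tumours on the left, then 8 vehicle tumours, each ordered by rising skeletal muscle share; colour limited to between -3 and 3). T_331_S44, the leftmost column, is the lowest triple tumour in 20 of the 25 lists, and 15 of the 25 lists lie above the vehicle mean in all 8 triple tumours.

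Stress response genes rose. Of 23 integrated stress response and amino acid genes 19 rose (median 1.11), and without the 5 muscle-rich tumours 21 rose (median 1.19). Slc3a2, the heavy chain that pairs with the cystine importer, stood at 242, 334 and 462 CPM in triple tumours, against 135, 145 and 152 CPM in vehicle tumours, and rose by 1.20 ± 0.11 (SE; adjusted p = 7.82e-08). Ddit3, the CHOP factor, stood at 22.9, 33.5 and 65.4 CPM, against 11.1, 14 and 17.2 CPM in vehicle tumours (1.34 ± 0.16, SE; adjusted p = 1.09e-06), and Sesn2, a brake on mTORC1, rose by 1.35. Chaperones of the unfolded protein response of the endoplasmic reticulum were called about as often as all genes. Of 18 chaperones 5 rose and 3 fell (median 0.10), with 2 higher and 2 lower with the muscle covariate and 3 called higher without triple tumour T_362_S42, and Hspa5, the BiP chaperone, had a log2 fold change of 0.11 ± 0.08 (SE; adjusted p = 0.244).

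Antioxidant targets of the factor NRF2 rose in 18 of 20 members (median 1.06). In 13 of them every triple tumour lay above every vehicle tumour, beside 4% of all genes. Gclm, a subunit of the enzyme that starts glutathione synthesis, stood at 69, 100 and 130 CPM in triple tumours, against 32.2, 34.7 and 37.2 CPM in vehicle tumours, and rose by 1.45 ± 0.15 (SE; adjusted p = 2.53e-07). G6pdx, which makes NADPH in the pentose phosphate pathway, rose by 1.10 ± 0.10 (SE; adjusted p = 4.98e-08). Hmox1, which degrades haem, stood at 360, 675 and 1861 CPM, against 58.5, 105 and 196 CPM in vehicle tumours (2.93 ± 0.31, SE; adjusted p = 2.61e-07). The haem transporter gene Slc48a1 and the drug and glutathione exporter gene Abcc1 rose by 1.70 and 1.41. The ferritin chains Fth1 and Ftl1, which store iron, rose by 1.49 and 1.47, and the iron exporter gene Slc40a1 by 1.70. Ireb2, a regulator that lowers ferritin translation, fell by 0.41 log2 units (adjusted p = 3.57e-05).

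Glycolytic and hypoxia genes rose in 22 and fell in 2 of the 31 entries measured for 30 gene names (median 0.53). Eno1 stood at 566, 790 and 854 CPM in triple tumours, against 365, 440 and 512 CPM in vehicle tumours, and rose by 0.80 ± 0.09 (SE; adjusted p = 3.06e-07). Pfkfb3, which makes the activator of phosphofructokinase, rose by 1.61, the glucose transporter gene Slc2a3 by 1.55 and Vegfa by 1.03. Mitochondrial energy genes fell in part: 8 of 11 genes encoded in mitochondrial DNA fell (median -0.68). Of 47 nuclear oxidative phosphorylation genes 15 fell and 4 rose (median -0.10), beside 22.8% and 23% of all genes. Without the muscle-rich tumours 6 of the 47 fell and 1 rose, beside 2848 and 2853 of all 18723 genes. With the muscle covariate 4 of the 47 fell and 1 rose, beside 1678 and 1768 of all 18723 genes. Ndufa4, a cytochrome oxidase subunit, stood at 57.9, 68 and 80.1 CPM, against 136, 142 and 151 CPM in vehicle tumours, with no overlap, and fell by 1.04 log2 units (adjusted p = 7.09e-08). The complex I gene mt-Nd5 fell by 0.85 log2 units (adjusted p = 0.00013). Without vehicle tumour C_375_S31, or without triple tumour T_354_S47, 2 nuclear oxidative phosphorylation genes were called higher.

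Growth control genes changed in both directions. Of 21 cell cycle inhibitors and p53 targets 14 rose and 4 fell (median 0.68). The number that rose was 9 without the muscle-rich tumours and 5 with the muscle covariate. Cdkn1a, the p21 inhibitor, stood at 170, 298 and 481 CPM in triple tumours, against 59.3, 93.8 and 116 CPM in vehicle tumours, and rose by 1.74 ± 0.20 (SE; adjusted p = 8.14e-07). Mdm2, which degrades p53, rose by 1.07. Cdkn1b and Cdkn2c, the p27 and p18 inhibitors, fell by 0.84 and 1.42 log2 units, and Gadd45a by 1.07 (adjusted p = 4.82e-06), with every triple tumour below every vehicle tumour. Bcl2l1, which protects from apoptosis, rose by 0.86 ± 0.10 (SE; adjusted p = 7.32e-07) and Bak1, an effector of apoptosis, by 0.44, while Bmf and Bad, which promote it, fell by 1.90 and 0.64 log2 units.

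The number of proliferation genes called depended on the tumours included. Of 28 DNA replication genes 9 rose and 0 fell (median 0.20), and of 26 mitosis genes 1 rose and 1 fell (median 0.14), beside the 23% of all genes that rose. Without the muscle-rich tumours 19 replication and 11 mitosis genes rose (medians 0.53 and 0.42), and with the muscle covariate 3 and 0 rose. The count of replication genes was 14 without triple tumour T_352_S48 and 4 without vehicle tumour C_375_S31, and 6 mitosis genes rose without triple tumour T_352_S48 and 3 without dual tumour D_370_S38. Myc stood at 135, 568 and 736 CPM in triple tumours, against 201, 236 and 306 CPM in vehicle tumours, and rose by 0.91 ± 0.23 (SE; adjusted p = 0.00301). Triple tumour T_352_S48 was the one below the vehicle range. Of 21 Myc targets and ribosome biogenesis genes 7 rose and 1 fell (median 0.25), but 17 rose without that tumour, and 19 rose (median 0.61) without the 5 muscle-rich tumours, of which it is one, and 13 with the covariate. Nolc1, a nucleolar assembly factor, rose by 0.70 with all tumours. Ribosomal protein genes fell in 28 of 37 members (median -0.39). Rps7 stood at 268, 386 and 602 CPM, against 575, 868 and 1359 CPM in vehicle tumours (log2 fold change -1.10 ± 0.19, SE; adjusted p = 7.56e-05). Without the muscle-rich tumours 7 ribosomal protein genes were called lower (median -0.13), and with the covariate 2.

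Sterol and fatty acid synthesis genes fell in 23 and rose in 2 of 29 members (median -0.70). Idi1, an enzyme of isoprenoid synthesis, stood at 1.39, 6.17 and 11.9 CPM in triple tumours, against 13.6, 15.7 and 18.3 CPM in vehicle tumours, and fell by 1.6 log2 units (adjusted p = 0.000787). Insig1, which retains the sterol sensor, fell by 1.13 and Srebf1, the lipogenic factor, by 0.45 log2 units. The 2 members that rose were the cholesterol exporters Abcg1 and Abca1, by 2.19 and 1.65. Without the 5 muscle-rich tumours 3 members were called lower and 5 higher (median -0.13), and Idi1 stood at -0.61 (adjusted p = 0.0336). With the muscle covariate 1 member was called lower, Srebf1, and 1 higher. Idi1, Insig1 and Abca1 then stood at -0.86, -0.58 and 0.93 (adjusted p = 0.162, 0.177 and 0.0939).

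**Figure D5:**
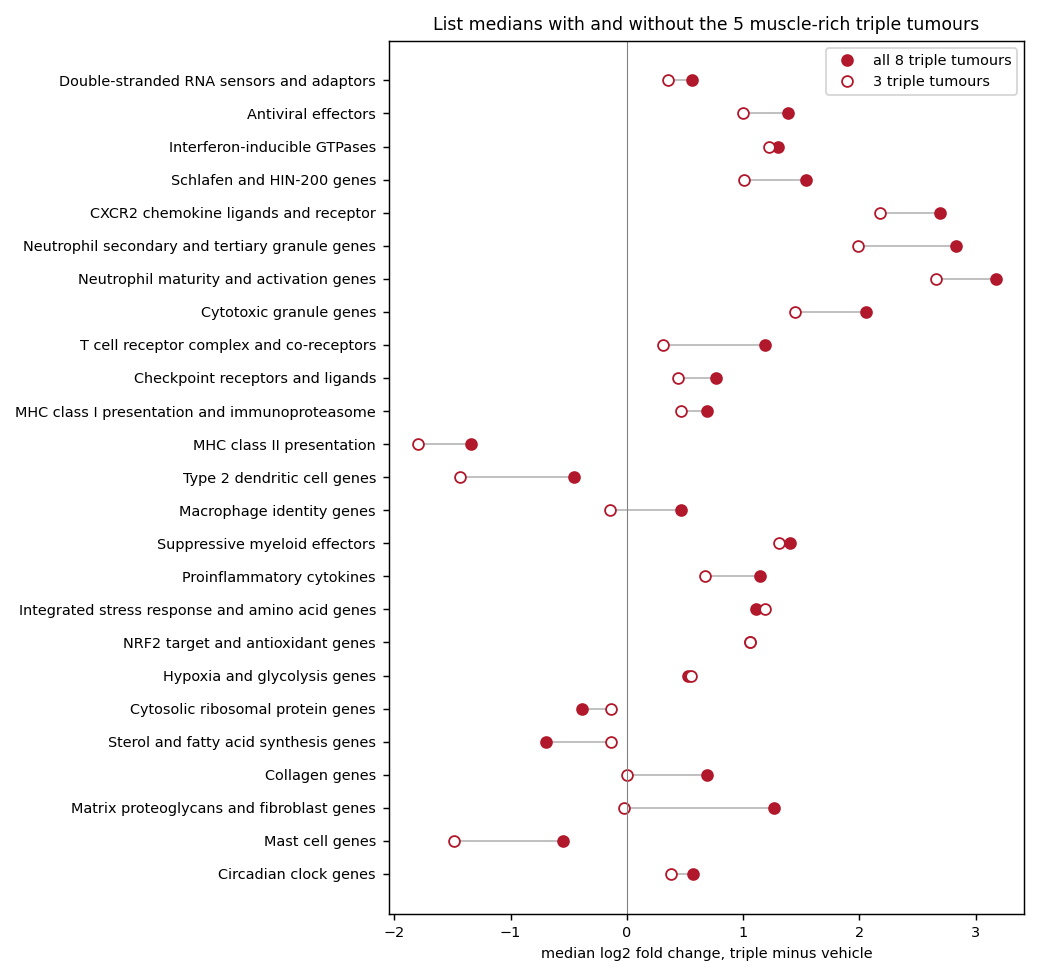
Median log2 fold change of each of the lists drawn above, with all 8 triple tumours (filled) and with the 3 triple tumours that were not muscle-rich (open), each against the 8 vehicle tumours. The stress response medians lie close together, at 1.11 and 1.19, whereas those of matrix and fibroblast genes lie apart, at 1.26 and -0.03.

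Stromal genes diverged within their lists. Of 20 collagen genes 9 rose and 3 fell (median 0.69), and of 31 proteoglycan and fibroblast genes 16 rose and 6 fell (median 1.26). Without triple tumour T_352_S48 there were 5 collagen genes called lower. Without the muscle-rich tumours both medians lay near 0, at -0.000643 and -0.03, with 5 collagen genes higher and 4 lower, and 7 proteoglycan and fibroblast genes in each direction. With the muscle covariate 2 collagen genes rose and 0 fell, and 3 proteoglycan and fibroblast genes rose and 5 fell. Lum, lumican, a proteoglycan that spaces collagen fibrils, stood at 64.4, 89.3 and 192 CPM in triple tumours, against 421, 485 and 528 CPM in vehicle tumours. Its groups did not overlap, and the log2 fold change was -2.36 ± 0.22 (SE; adjusted p = 5.39e-08) with all tumours and -2.86 (adjusted p = 2.5e-07) without those 5. Dpt, dermatopontin, fell by 1.72 log2 units. The basement membrane collagen Col4a5, which is not among the 20 collagen genes counted above, fell by 2.46 log2 units. Col1a1 rose by 2.88 ± 0.61 (SE; adjusted p = 0.000541), with triple tumours between 214 and 15062 CPM and vehicle tumours between 97.4 and 536 CPM. It was not called without the 5 tumours (1.82, adjusted p = 0.0569) or with the covariate (1.47, adjusted p = 0.155). The matrix glycoprotein genes Tnc and Fbln2 rose by 2.38 and 2.42 and kept their calls, at 1.70 (adjusted p = 0.0142) and 1.6 (adjusted p = 0.00198).

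Signals between stroma and tumour cells changed as well. Of 25 TGF-beta and Wnt family genes 14 rose and 4 fell (median 0.91), and 5 rose with the muscle covariate. Thbs1, which activates latent TGF-beta, stood at 186, 546 and 2028 CPM in triple tumours, against 59.7, 103 and 179 CPM in vehicle tumours, and rose by 2.49 ± 0.33 (SE; adjusted p = 4.44e-06). Inhba, an activin subunit, and Fst, which binds activin, rose by 2.81 and 2.7. Tgfb3 stood at 20.9, 27.8 and 37.4 CPM, against 67.2, 82.5 and 162 CPM in vehicle tumours, with no overlap, and fell by 1.61 log2 units (adjusted p = 6.19e-07), with the receptor gene Tgfbr1 at -0.79. The Wnt antagonist Dkk2 fell by 2.17 and the growth factor Ptn by 2.37 log2 units. Plaur, the receptor for a plasminogen activator, rose by 1.27, as did the collagenase gene Mmp13, by 1.43. Mmp14 and Mmp28 fell by 0.48 and 2.02 log2 units.

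Endothelial, mast cell and circadian clock genes also differed. Of 29 endothelial genes 13 rose (median 0.55), and 20 did without triple tumour T_331_S44. Fewer were called under both choices: 5 endothelial genes rose (median 0.23) without the muscle-rich tumours, and 2 (median 0.11) with the muscle covariate. Flt1, a VEGF receptor, rose by 1.04 (adjusted p = 0.000203). Mast cell genes fell in 5 and rose in 1 of 12 members (median -0.55). Mcpt2, a mucosal mast cell protease, stood at 0.0903, 0.276 and 0.679 CPM in triple tumours, against 3.52, 7.77 and 21.5 CPM in vehicle tumours, with no overlap, and had a log2 fold change of -5.08 ± 0.47 (SE; adjusted p = 5.13e-08). The mast cell count was 3 without vehicle tumour C_356_S27, C_364_S28 or C_369_S30 or triple tumour T_355_S43, in turn, 8 without the muscle-rich tumours and 10 with the covariate. Hdc, the histamine-forming enzyme, which neutrophils also express, was the member that rose, by 2.16 (adjusted p = 1.8e-05). Of 18 circadian clock genes 10 rose and 1 fell (median 0.57). Nr1d1, the repressor REV-ERB alpha, stood at 51.4, 62.5 and 90 CPM, against 9.5, 17.5 and 23.8 CPM in vehicle tumours, and rose by 2.0 ± 0.18 (SE; adjusted p = 4.69e-08). Per2 and Ciart rose by 1.19 and 1.49. The hour of tumour collection is not given in the labels.

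The dual tumours had the same poly I:C and anti-PD-1 without PMX53. In the same limma fit 4007 genes (21.4%) were called between triple and dual tumours. Mgl2 was lower in triple than in dual tumours by 3.07 log2 units (adjusted p = 0.00355), with dual tumours at 0.413, 2.18 and 5.15 CPM. Fcrls and Ccl22 were lower as well, by 2.14 and 2.50 in log2 units (adjusted p = 0.00595 and 0.0018). C5ar1 was higher in triple than in dual tumours by 0.97 ± 0.26 (SE; adjusted p = 0.014), C3ar1 by 1.07 and Gzmb by 1.72. These calls were lost without the 5 muscle-rich triple tumours, where Mgl2, Fcrls and Ccl22 stood at -2.92, -2.27 and -2.55 (adjusted p = 0.284, 0.284 and 0.0993) and C5ar1, C3ar1 and Gzmb at 0.20, 0.37 and 0.90 (adjusted p = 0.748, 0.518 and 0.475). With the muscle covariate Mgl2 and Ccl22 were still called, at -3.29 and -2.63 (adjusted p = 0.024 and 0.0152). Fcrls stood at -1.87, C5ar1 at 0.48, C3ar1 at 0.63 and Gzmb at 0.96 with the covariate, without a call (adjusted p = 0.209, 0.432, 0.338 and 0.275). For Slc7a11, Gclm and Oas3 the triple minus dual log2 fold change was -0.03 ± 0.24, -0.24 ± 0.15 and 0.47 ± 0.30 (SE; adjusted p = 0.931, 0.237 and 0.243), and none of the 3 was called, except that Gclm was lower in triple tumours (-0.38, adjusted p = 0.024) without dual tumour D_370_S38.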

How the data were processed

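Tumour RNA was extracted and made into stranded mRNA libraries, per the labels' protocols. FastQC 0.11.8, STAR 2.7.9a, featureCounts 1.6.0, edgeR, limma and the build GRCm39 are named in the submitters' processing notes, with no role or order, and the strand setting of the counting: not given in the sources used here. The authors deposited log2 CPM for 18723 genes. In these deposited log2 values 100% corresponded to whole reads plus an offset of 0.5 reads, within 0.01 reads, over a scaled library size. A gene with 0 reads therefore shows a small CPM above 0. A batch or depth effect common to a group would remain in such values.

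From these values, 1 limma model (limma 3.58.1, R 4.3.3) was fitted to the 24 tumours of 3 groups with a variance trend, and triple was contrasted with vehicle and with dual. P-values were adjusted over all genes by the Benjamini-Hochberg method, with a threshold of 0.05. Figures were drawn with matplotlib 3.10.9 under Python 3.11.15. Total reads ranged from 14438318 to 19254090 over triple and vehicle tumours, and no pair of tumours had identical reads.

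Named genes are the 15 largest rises and the 15 largest falls among called genes at or above the median level, the 10 of each direction with the smallest p, the 5 members of each list with the smallest p, called members against their list's majority, members of lists of at most 8 genes, and some fixed genes of interest. Some of these genes and lists are not reported here. The members and lists were chosen with earlier results of these data known. List medians are over measured members and stand beside a median of -0.02 over all genes. Alternatives covered the samples in the fit, variance model, scaling, low values, pseudocount, test, muscle covariate and each tumour left out.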

Additional observations from a re-analysis of the deposited data

Results flagged for a closer look

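For each gene named in the report, the highest and lowest tumour of each group was compared with its neighbours on the log2 scale by Dixon's criterion. Among 346 groups, 1 gene in 1 treatment group each, in 23 cases 1 tumour stood apart from the other 7 of its group, and chance gives about 1 in 20 groups.

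Vehicle tumour C_364_S28 was the low one in 12 of the 23. It had 1.94 CPM of Acod1, 0.26 CPM of Arg2, 1.47 CPM of Ccl3 and 0.953 CPM of Ccl4. It also had 2.74 CPM of Clec4e, 0.838 CPM of Cxcl2, 0.376 CPM of Cxcl3 and 1.24 CPM of Cxcr2. Il1a (0.0289 CPM, 0 reads), Mlkl (51.2 CPM), Slfn4 (9.91 CPM) and Slpi (0.896 CPM) were low in the same tumour.

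In other vehicle tumours, C_361_S32 had a separate value for Hc (0.0992 CPM), Sesn2 (35.9 CPM) and Tnc (40.6 CPM), C_339_S25 for Hspa5 (1325 CPM) and C_375_S31 for Masp1 (232 CPM). Among triple tumours, T_355_S43 had a separate value for Csf1 (574 CPM), Plaur (336 CPM) and Ppbp (46.3 CPM). T_352_S48 stood apart for Lcn2 (302 CPM) and Mmp13 (47.3 CPM), and T_354_S47 for Ireb2 (65.3 CPM).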

How the results depend on the processing

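With the skeletal muscle score as a covariate, the genes called higher in triple tumours numbered 1768, the genes called lower in triple tumours 1678, and those at least 2-fold higher and lower 568 and 493. Without the muscle-rich triple tumours, an alternative chosen after seeing the data, 2853 genes were called higher and 721 at least 2-fold higher, beside 777 at least 2-fold lower, with 3 triple tumours in place of 8. With a filter on low values, which tests fewer genes, 1366 were at least 2-fold higher and 467 at least 2-fold lower. Median centring gave 3637 higher and 4764 lower, and quantile normalization 3692 and 5372. These shift the median log2 fold change of all genes to -0.09 and -0.11. Leaving out each tumour in turn gave 3928 to 4696 genes called higher and 3891 to 4524 called lower. The other alternatives kept each of these 4 counts within 1.5 times.

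Of the 173 genes named, 166 were called. None changed sign with a call under the 37 alternatives, 16 lost the call with the muscle covariate and 8 without the muscle-rich tumours. Under the remaining alternatives, Aim2 and Vim lost it. Among lists with most members called one way, the median changed sign for matrix proteoglycans and fibroblast genes without the muscle-rich tumours (-0.0284), and with the covariate for skeletal muscle genes (-0.0761) and adipocyte genes (-0.295). Medians of mixed lists crossed 0 as well, as for collagen (-0.000643), macrophage identity (-0.15), lymphoid and dendritic cell chemokine (-0.43) and plasmacytoid (-0.05) genes without the muscle-rich tumours. With the covariate they did for the last 3 of these, at -0.0953, -0.45 and -0.49, and for mural cell genes (-0.04). The cause was not tested. In the 200 bases before the start site alone, GAAANNGAA was in 4.96% of all promoters, 55% of antiviral effectors and 90% of GTPases. No paired analysis was possible because each tumour number occurs once. Genes near 0 reads were limited by depth.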
